A study of Mus musculus with 10 samples.

Results

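Of the endoplasmic reticulum (ER) stress response and of protein folding in the ER, 9 genes were examined: Hspa5, Hsp90b1, Pdia4, Calr, Dnajb9, Serpinh1, Xbp1, Atf4 and Ddit3. Their probe sets were taken by gene symbol in the platform annotation, which gave 10 of the 12488 probe sets on the array, with 2 for Dnajb9 and 1 for each of the other 8 genes. Of these, 9 passed the filter on dim probe sets and were tested, and the probe set of Calr was too dim. In 129X1/SvJ mice, 1 of the 2 Dnajb9 probe sets rose after noise, by 2.10 on the log2 scale. The other members, the second Dnajb9 probe set included, did not pass the test in any comparison. Ddit3 and Atf4, though not called, read higher on all 5 noise arrays than on all 5 control arrays, as did 1.40% of all tested probe sets.

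RNA came from the microdissected membranous labyrinth of the cochlea of female mice aged 10 weeks, with RNA of 8 mice on each array. Noise-exposed mice of the inbred strain 129X1/SvJ (3 arrays) and of B6.CAST (2 arrays) were exposed for 1 h to a 105 dB SPL octave band at 10 kHz, and the tissue was taken 6 h after the exposure. Control mice of 129X1/SvJ (3 arrays) and B6.CAST (2 arrays) sat in the noise chamber without noise. B6.CAST carries a CAST segment around Cdh23 on a C57BL/6J background, so each strain group also differs in many other alleles. The tissue is a mixture of cells, and fewer cells of a type cannot be told apart from less RNA per cell.

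When unfolded proteins build up in the ER, 3 sensors in its membrane start the unfolded protein response. IRE1 splices the mRNA of Xbp1, a transcription factor that raises folding and degradation genes; PERK slows translation but lets ATF4 be made, which raises amino acid genes and Ddit3; and ATF6 is cut to release a factor that raises chaperones. ATF6 and XBP1 act through the ER stress response element (ERSE), and secretory cells keep chaperone levels high without stress.

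The promoters of Hspa5 and Hsp90b1 are shown because both hold the ERSE, and that of Dnajb9 because it is the gene with a called change and holds none. Each runs from 250 bases before to 50 bases after the start of the gene in RefSeq on GRCm38.p6, 5′ to 3′ on the strand of the gene. Capitals mark the fixed letters of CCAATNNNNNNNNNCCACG or of its reverse complement in the first 2. In Dnajb9 they mark single CCAAT and CCACG boxes, which are also the ends of the longer motif.
Hspa5: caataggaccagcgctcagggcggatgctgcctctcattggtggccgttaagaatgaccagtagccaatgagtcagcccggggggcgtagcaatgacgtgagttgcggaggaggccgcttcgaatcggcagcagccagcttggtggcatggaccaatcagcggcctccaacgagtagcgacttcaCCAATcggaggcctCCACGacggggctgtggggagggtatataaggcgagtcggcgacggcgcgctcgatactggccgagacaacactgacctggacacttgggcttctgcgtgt
Hsp90b1: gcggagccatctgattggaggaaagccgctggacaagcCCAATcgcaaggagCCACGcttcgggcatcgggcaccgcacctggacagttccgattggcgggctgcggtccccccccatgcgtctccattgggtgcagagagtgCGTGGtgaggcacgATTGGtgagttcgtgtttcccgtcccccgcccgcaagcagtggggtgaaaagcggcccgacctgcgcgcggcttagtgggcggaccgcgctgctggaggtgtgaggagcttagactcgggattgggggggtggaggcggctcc
Dnajb9: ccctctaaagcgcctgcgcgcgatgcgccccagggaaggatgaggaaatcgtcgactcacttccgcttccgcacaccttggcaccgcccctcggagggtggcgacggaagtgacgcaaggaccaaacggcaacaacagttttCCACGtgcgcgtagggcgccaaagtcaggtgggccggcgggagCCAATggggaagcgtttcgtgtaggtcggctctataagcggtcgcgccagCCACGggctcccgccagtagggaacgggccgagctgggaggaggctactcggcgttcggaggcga
These windows are chr2:34771840-34772139 on the plus strand, chr10:86705395-86705694 on the minus strand and chr12:44210019-44210318 on the minus strand. Both strands of all 32851 promoter windows in the table were searched, and 0.119% of them held the ERSE. The match lay 65 bases before the start in Hspa5, and 212 and 107 bases before it in Hsp90b1. The Calr promoter (chr8:84846882-84847181, minus strand) held 1 match, 162 bases before the start and on the reverse strand, shown for comparison.
Calr: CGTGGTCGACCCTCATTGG
The letters of the ERSE were not in the windows of Dnajb9, Pdia4, Xbp1, Ddit3, Atf4 and Serpinh1. No member held ATTGGNCCACG (ERSE-II, in 0.0365% of all promoters), TGACGTGG (an unfolded protein response element, 0.676%), TGATGNAAT (an ATF4 and C/EBP site, 0.965%) or the heat shock element GAANNTTCNNGAA (0.603%). The shorter CCAAT box occurs in 37.4% of promoters and CCACG in 32.8%, so either alone is common.

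Signals are the linear intensities of the deposited table. Changes are differences of group means of log2(intensity + 16) after quantile normalization, given with their standard errors (SE) from the fit. A change was called where limma's Benjamini-Hochberg adjusted p was under 0.05. Noise in 129X1/SvJ called 44 of 8695 probe sets (0.506%), and 1 of the 9 member probe sets; at an unadjusted p under 0.05 it held 3 of the 9 against 1003 of all (11.5%). Noise in B6.CAST called 4 (0.0460%), the mean of both noise effects 40 (0.460%) and the difference between them 0 (0%). B6.CAST differed from 129X1/SvJ at 80 probe sets (0.920%) in controls and at 126 (1.45%) after noise. None of these 5 comparisons called a member in limma, and at an unadjusted p under 0.05 they held 0, 3, 1, 2 and 0 of the 9 member probe sets, against 183, 663, 258, 966 and 920 of all 8695.

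**Figure D1:**
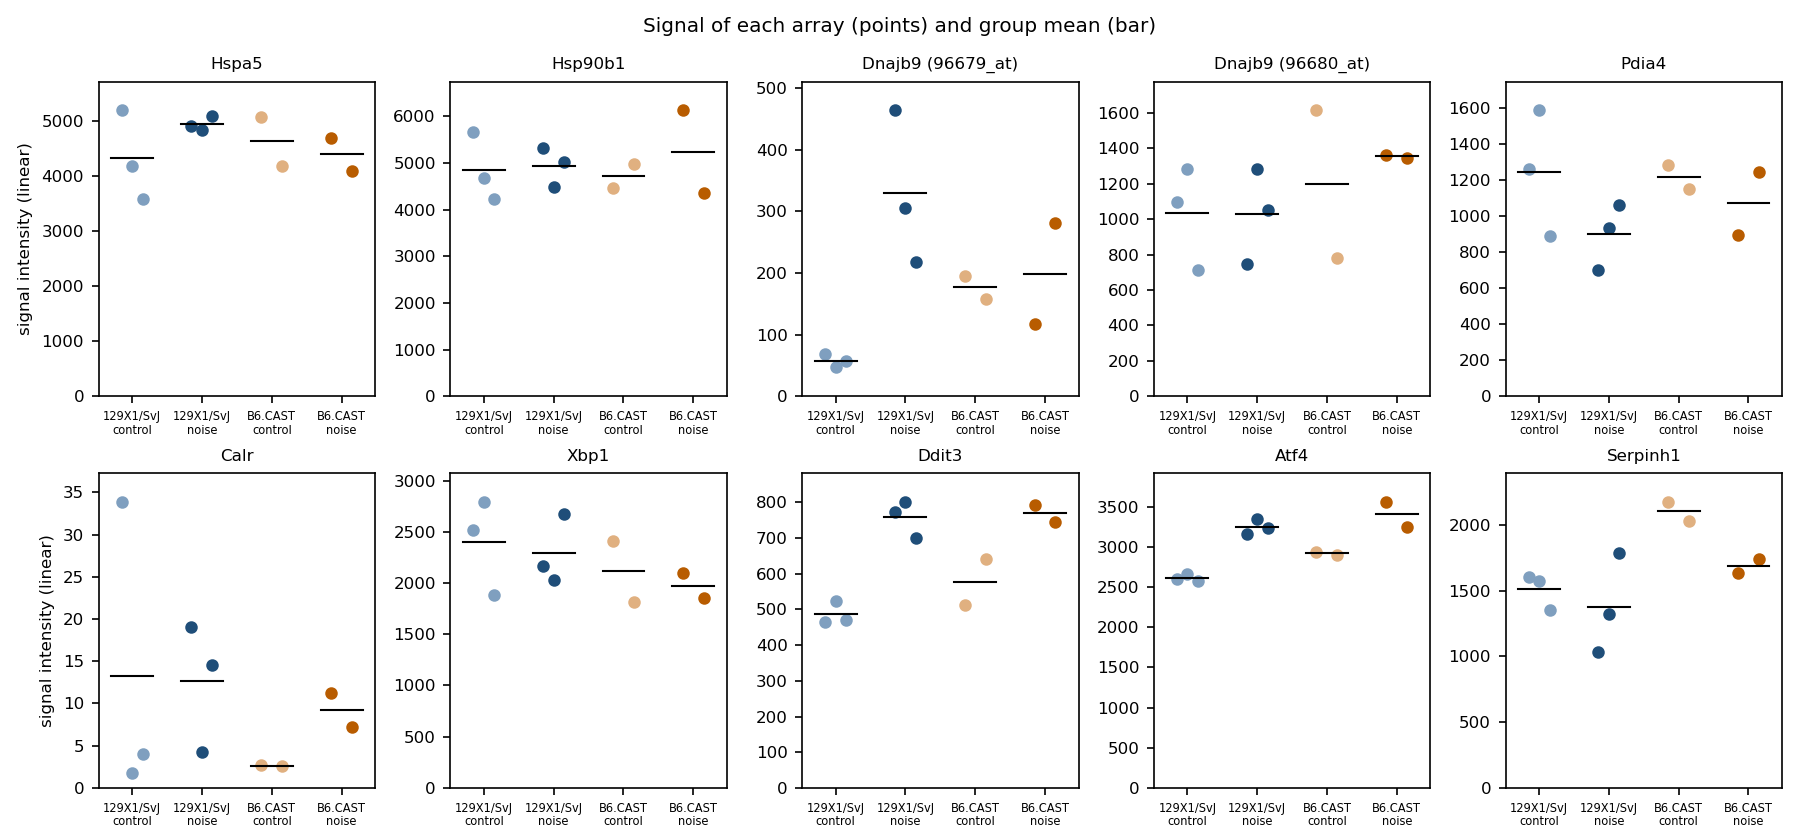
Linear signal intensity (vertical axes, starting at 0, own scale per panel) of the 10 member probe sets on each array, by strain and exposure; points are arrays, bars are group means. The 129X1/SvJ noise arrays read 218.1 to 463.9 for Dnajb9 probe set 96679_at against 47.1 to 68.5 on the controls. Every noise array of either strain lies above every control array for Ddit3 and Atf4, which in normalized values held for 1.40% of all tested probe sets.

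Dnajb9 encodes ERdj4, an ER co-chaperone with a J domain that works with BiP and is a classic target of XBP1. Its probe set 96679_at read 68.5, 47.1 and 57.1 on the 129X1/SvJ control arrays and 463.9, 305.2 and 218.1 on the noise arrays. The lowest noise array was above the highest control array. It rose by 2.10 ± 0.31 on the log2 scale (95% interval 1.41 to 2.79; limma adjusted p = 0.0124), a 4.28-fold change. In B6.CAST it read 195.4 and 158.2 on the control arrays and 117.2 and 280.9 on the noise arrays. The noise arrays there fell on either side of the controls, and the change was 0.09 ± 0.38 (interval -0.75 to 0.93; limma adjusted p = 1.00). The B6.CAST noise effect minus that of 129X1/SvJ was -2.01 ± 0.50 (interval -3.10 to -0.92), which did not pass over all probe sets (limma adjusted p = 0.997). A difference between the strains in the response of Dnajb9 was therefore not called.

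The second probe set of Dnajb9, 96680_at, did not show that rise. It read 1098.1, 1285.0 and 713.1 on the 129X1/SvJ control arrays and 744.7, 1281.9 and 1052.0 on the noise arrays. The B6.CAST controls read 1614.3 and 781.0 and the noise arrays read 1359.9 and 1346.0. Noise and control arrays overlapped in both strains. The changes were 0.02 ± 0.29 in 129X1/SvJ (interval -0.62 to 0.66; limma adjusted p = 0.979) and 0.26 ± 0.36 in B6.CAST (interval -0.53 to 1.04; limma adjusted p = 1.00). The interval for 129X1/SvJ does not reach the value of 96679_at, so the probe sets of this gene disagree. Where the probes lie in the transcript was not analysed here.

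**Figure D2:**
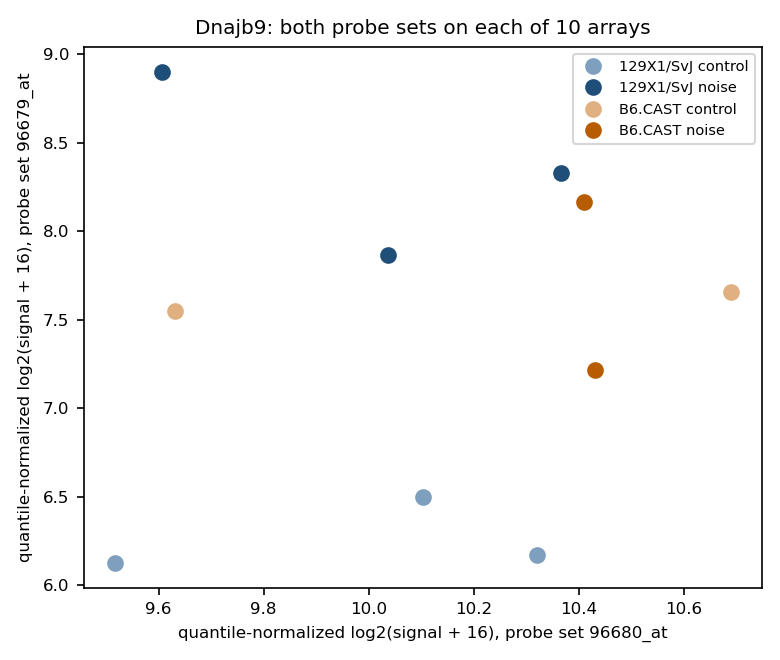
Normalized log2(intensity + 16) of Dnajb9 probe set 96679_at (vertical) against 96680_at (horizontal), 1 point per array, coloured by strain and exposure. The 3 control arrays of 129X1/SvJ lie lowest on the vertical axis. On the horizontal axis noise and control arrays overlap within each strain, while the B6.CAST noise arrays lie above all 129X1/SvJ arrays.

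The call for 96679_at depended on the 129X1/SvJ controls. Without control array 2 of that strain the change was 2.04 (limma adjusted p = 0.0677), and without control array 3 it was 2.04 (limma adjusted p = 0.0599). Without noise array 1, which reads highest, it was 1.86 and still called (limma adjusted p = 0.0429). The levels on the 129X1/SvJ control arrays, 47.1 to 68.5, are close to the signal of about 42.9 below which probe sets were left out. The other arrays read 117.2 to 463.9, so the called rise was measured from values near that limit. A filter on the lowest 50% removed the probe set. Over the 10 arrays, the genes whose profile lay closest to that of 96679_at were Fzd7, Arnt and Lyst, at mean absolute differences of 0.355, 0.355 and 0.385 log2 units once each probe set's own mean was subtracted, against a median of 0.807 over all genes. The likeness is loose, since on the array that differed most these genes were off by 1.44, 0.75 and 1.15. For 96680_at they were E2f5, Rcor1 and Tnfrsf11b, at 0.131, 0.139 and 0.156 against a median of 0.391, so the closest genes of the 2 probe sets were different ones.

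Ddit3 encodes CHOP, the transcription factor downstream of ATF4 that is tied to cell death under prolonged stress. It read 465.7, 523.7 and 470.4 on the 129X1/SvJ control arrays and 773.5, 802.3 and 699.9 on the noise arrays. B6.CAST arrays read 512.8 and 642.2 without noise and 794.1 and 745.3 after it. The groups did not overlap in either strain, and the lowest noise array of all 5 was above the highest control array of all 5. The change was 0.62 ± 0.16 in 129X1/SvJ (interval 0.28 to 0.97; limma adjusted p = 0.176) and 0.41 ± 0.19 in B6.CAST (interval -0.01 to 0.84; limma adjusted p = 1.00). The mean of both was 0.52 ± 0.12 (limma adjusted p = 0.172), and none of the 3 passed.

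Atf4 encodes the transcription factor whose translation rises when PERK is active; an array measures its mRNA and not that translation. It read 2599.6, 2662.7 and 2574.5 on the 129X1/SvJ control arrays and 3157.2, 3346.5 and 3239.5 on the noise arrays. In B6.CAST it read 2938.7 and 2895.5 without noise and 3561.4 and 3241.7 after it. Noise arrays were again above the controls in each strain and across strains, by small amounts. The change was 0.34 ± 0.10 in 129X1/SvJ (interval 0.12 to 0.56; limma adjusted p = 0.265) and 0.23 ± 0.12 in B6.CAST (interval -0.05 to 0.50; limma adjusted p = 1.00), with a mean of 0.28 ± 0.08 (limma adjusted p = 0.298). Ddit3 and Atf4 are 2 of the 9 member probe sets, and 122 of all 8695 (1.40%) had all 5 noise arrays above all 5 controls.

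Xbp1, the third transcription factor, read 2519.2, 2794.5 and 1882.0 on the 129X1/SvJ control arrays and 2166.2, 2031.4 and 2676.6 on the noise arrays. The B6.CAST controls read 2413.4 and 1812.4 and the noise arrays read 2099.0 and 1850.4. The groups overlapped in both strains. The changes were -0.03 ± 0.18 (interval -0.43 to 0.36) and -0.09 ± 0.22 (interval -0.57 to 0.39). The array does not separate spliced from unspliced Xbp1 mRNA, so the activity of IRE1 was not measured.

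Hspa5 encodes BiP, the main Hsp70 chaperone of the ER and the usual marker of the unfolded protein response. It read 5198.1, 4179.4 and 3582.7 on the 129X1/SvJ control arrays and 4918.9, 4833.6 and 5082.8 on the noise arrays. B6.CAST arrays read 5077.6 and 4180.5 without noise and 4688.3 and 4101.3 after it. In signal, the highest control array was above all noise arrays in each strain. In normalized values noise array 3 of 129X1/SvJ was slightly above the highest control of that strain, at 12.37 against 12.35, and the groups still overlapped. The changes were 0.22 ± 0.15 (interval -0.11 to 0.55; limma adjusted p = 0.586) and -0.07 ± 0.18 (interval -0.48 to 0.33; limma adjusted p = 1.00). A doubling of BiP mRNA, a log2 change of 1, lies outside both intervals.

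Hsp90b1 encodes GRP94, the Hsp90 chaperone of the ER. It read 5663.2, 4666.6 and 4233.0 on the 129X1/SvJ control arrays and 5319.0, 4492.5 and 5012.6 on the noise arrays. In B6.CAST it read 4461.3 and 4981.1 without noise and 6130.0 and 4346.9 after it, so that control and noise arrays overlapped in both strains. The changes were 0.04 ± 0.15 (interval -0.30 to 0.37) and 0.13 ± 0.19 (interval -0.28 to 0.54).

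Pdia4 encodes ERp72, a disulfide isomerase that forms and rearranges disulfide bonds. It read 1261.8, 1586.6 and 887.4 on the 129X1/SvJ control arrays and 702.4, 934.9 and 1062.5 on the noise arrays. The B6.CAST controls read 1285.0 and 1147.6 and the noise arrays read 894.9 and 1243.7. Both strains overlapped. The changes were -0.42 ± 0.22 (interval -0.90 to 0.06; limma adjusted p = 0.483) and -0.21 ± 0.27 (interval -0.80 to 0.39; limma adjusted p = 1.00), neither of them called.

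Calr encodes calreticulin, a calcium-binding chaperone of glycoproteins. Its only probe set read between 1.8 and 33.9 over the 10 arrays, under the filter, and these values carry no usable level. Tested without a filter among 12422 probe sets, its changes were -0.04 ± 0.38 in 129X1/SvJ and 0.41 ± 0.46 in B6.CAST (limma adjusted p = 0.982 and 1.00).

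Serpinh1 encodes HSP47, the ER chaperone of collagen, which the connective tissue of the cochlea makes in quantity. It read 1605.2, 1573.9 and 1356.0 on the 129X1/SvJ control arrays and 1030.6, 1325.7 and 1783.7 on the noise arrays. B6.CAST arrays read 2178.2 and 2031.9 without noise and 1634.6 and 1742.1 after it. The groups overlapped in 129X1/SvJ, and in B6.CAST both noise arrays were below both controls. The changes were -0.13 ± 0.17 (interval -0.50 to 0.25; limma adjusted p = 0.792) and -0.30 ± 0.21 (interval -0.77 to 0.16; limma adjusted p = 1.00).

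**Figure D3:**
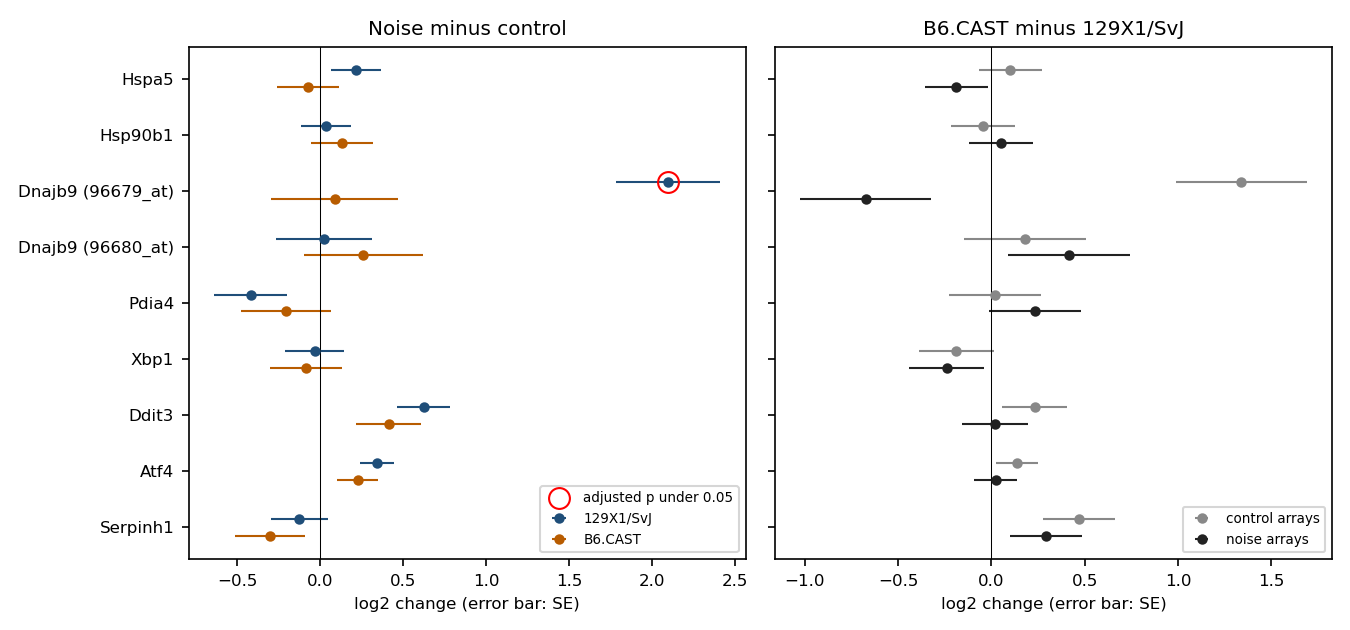
Log2 change of the 9 tested member probe sets; the left panel gives noise minus control in each strain and the right panel gives the B6.CAST mean less the 129X1/SvJ mean, separately for controls and noise arrays, with bars of 1 SE. The ringed point, Dnajb9 probe set 96679_at in 129X1/SvJ at 2.10, is the call; Ddit3 and Atf4 lie above 0 in both strains.

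In normalized values, all noise arrays of 129X1/SvJ were above all its controls for 3 of the 9 member probe sets (Dnajb9 96679_at, Ddit3 and Atf4), against 6.35% of all tested. In B6.CAST they were above for 2 (Ddit3 and Atf4), against 15.8%, and below for 1 (Serpinh1), against 13.8%. With the brightest probe set standing for each gene, the median change of the 8 tested genes was 0.03 in 129X1/SvJ, where the median of all tested probe sets was -0.04. In B6.CAST it was 0.03, beside 0.01 over all. Of the 8 genes, 5 were higher after noise in 129X1/SvJ and 4 in B6.CAST.

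The strain comparison called no member. In controls, the largest change was that of Dnajb9 96679_at, which was higher in B6.CAST by 1.34 ± 0.35 (limma adjusted p = 0.141), with no overlap between the strains. Of 19 alternatives, only 1 called it, the fit to the control arrays alone (limma adjusted p = 0.0452). After noise the same probe set was lower in B6.CAST, by -0.67 ± 0.35 (limma adjusted p = 0.567), and the strains overlapped. Serpinh1 was higher in the B6.CAST controls, at 0.47 ± 0.19 (limma adjusted p = 0.389), and at 0.29 ± 0.19 after noise. All B6.CAST controls were above all 129X1/SvJ controls for 3 of 9 member probe sets (Dnajb9 96679_at, Atf4 and Serpinh1), against 13.9% of all tested. After noise, B6.CAST was above for 1 (Dnajb9 96680_at), against 13.2%, and below for 2 (Hspa5 and Xbp1), against 12.1%. Whether alleles of the strains differ under the probes was not tested.

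The wider pathway was read through 6 lists that include the members, with the brightest probe set standing for each gene. Dnajb9 is therefore counted in its list by 96680_at, and its called probe set 96679_at is outside the list counts; no other probe set left out in this way was called. Among genes of the sensors and transcription factors of the unfolded protein response, 1 of 15 tested was called after noise in 129X1/SvJ, none in B6.CAST and 2 for the mean of both effects. At an unadjusted p under 0.05, 5 of the 15 passed in 129X1/SvJ, where 11.5% of all probe sets did, and 3 in B6.CAST, where 2.10% did. The list was chosen with earlier results of these data known and holds Ddit3 and Atf4, so these shares are no independent support. Atf3, a stress-induced transcription factor and a target of ATF4, read 271.4, 275.6 and 354.6 on the 129X1/SvJ control arrays and 2356.2, 1203.3 and 942.2 on the noise arrays. In B6.CAST it read 224.0 and 212.8 without noise and 873.5 and 429.2 after it. It rose by 2.15 ± 0.34 in 129X1/SvJ (limma adjusted p = 0.0134) and by 1.77 ± 0.27 for the mean of both (limma adjusted p = 0.0115); the value in B6.CAST was 1.39 ± 0.41 (limma adjusted p = 1.00). Its second probe set gave 1.07 ± 0.33 in 129X1/SvJ (limma adjusted p = 0.275). For the mean of both that probe set gave 0.76 ± 0.26 (limma adjusted p = 0.482), and in B6.CAST 0.46 ± 0.40, so it was not called. The call in 129X1/SvJ was lost without any 1 of the 3 control arrays of that strain (limma adjusted p = 0.0765, 0.0786 and 0.0506), while the change stayed at 2.08, 2.10 and 2.27. The call for the mean was lost without B6.CAST control 1, control 2 or noise 1 (limma adjusted p = 0.0717, 0.0648 and 0.0848), at changes of 1.76, 1.78 and 1.51. Atf3 is also induced by stresses outside the ER.

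Cebpb, a C/EBP factor that pairs with CHOP and ATF4 and also drives inflammatory genes, rose for the mean of both strains, by 1.18 ± 0.21 (limma adjusted p = 0.0333). It gave 1.32 ± 0.26 in 129X1/SvJ (limma adjusted p = 0.0638). It read 1199.0, 1292.6 and 975.1 on the control arrays there and 4249.1, 2022.6 and 2644.0 on the noise arrays. The B6.CAST controls read 711.0 and 744.7 and the noise arrays read 2028.2 and 1132.9, so the groups did not overlap in either strain. The call for the mean held in 9 of 19 alternatives; it was lost without 129X1/SvJ control 1, 2 or 3 or noise 3, and without B6.CAST control 1 or 2 or noise 1 (changes of 0.97 to 1.22, limma adjusted p from 0.0650 to 0.212). It was also lost with no filter (1.18, limma adjusted p = 0.0642), with no variance trend (1.18, limma adjusted p = 0.102) and with the pair of arrays with a high Gapdh ratio left out (1.01, limma adjusted p = 0.353).

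Of 16 ATF4 target and amino acid genes tested, Atf3 was the only call after noise in 129X1/SvJ, and 12 were higher, with a median of 0.10; in B6.CAST none was called, 11 were higher and the median was 0.15. Of 21 ER chaperones and folding enzymes, each by its brightest probe set, none was called in any of the 6 comparisons; the rise of Dnajb9 96679_at in 129X1/SvJ is the exception when every probe set is counted. In the list, 10 were higher after noise in 129X1/SvJ (median -0.05) and 9 in B6.CAST (median -0.07); limma gave 2 and 1 of 21 at an unadjusted p under 0.05, against 11.5% and 2.10% of all probe sets. Between the strains after noise, 5 of the 21 had an unadjusted p under 0.05 in limma, against 10.6% of all, and 15 were higher in B6.CAST, with a median of 0.20 beside 0.02 over all. Between the controls 1 of 21 did, against 11.1%, and 16 were higher, with a median of 0.11 beside -0.05. The smallest p-values of that list belonged to Pdia6, a disulfide isomerase, at 1.26 ± 0.28 higher in the B6.CAST controls (limma adjusted p = 0.0678), and Cnpy2, at -0.45 ± 0.12 for the mean noise effect (limma adjusted p = 0.270). Of 7 genes of ER-associated degradation, 17 of the translocon and signal peptide processing and 12 of collagen maturation, none was called in any comparison, and limma gave 0, 1 and 0 at an unadjusted p under 0.05 for noise in 129X1/SvJ. After noise 4, 4 and 6 of them were higher in 129X1/SvJ, and 4, 10 and 6 in B6.CAST. The values with the smallest p were 0.33 ± 0.15 for Herpud1 (strain after noise) and 0.37 ± 0.17 for Sel1l (mean noise effect), both part of the machinery that removes misfolded proteins. They were -0.43 ± 0.13 for Sec61b (mean noise effect), a subunit of the translocon, and 0.58 ± 0.20 for Sec62 (strain after noise), and 0.53 ± 0.21 for Lox (mean noise effect), which cross-links collagen, and 0.47 ± 0.19 for Serpinh1 itself (strain in controls).

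**Figure D4:**
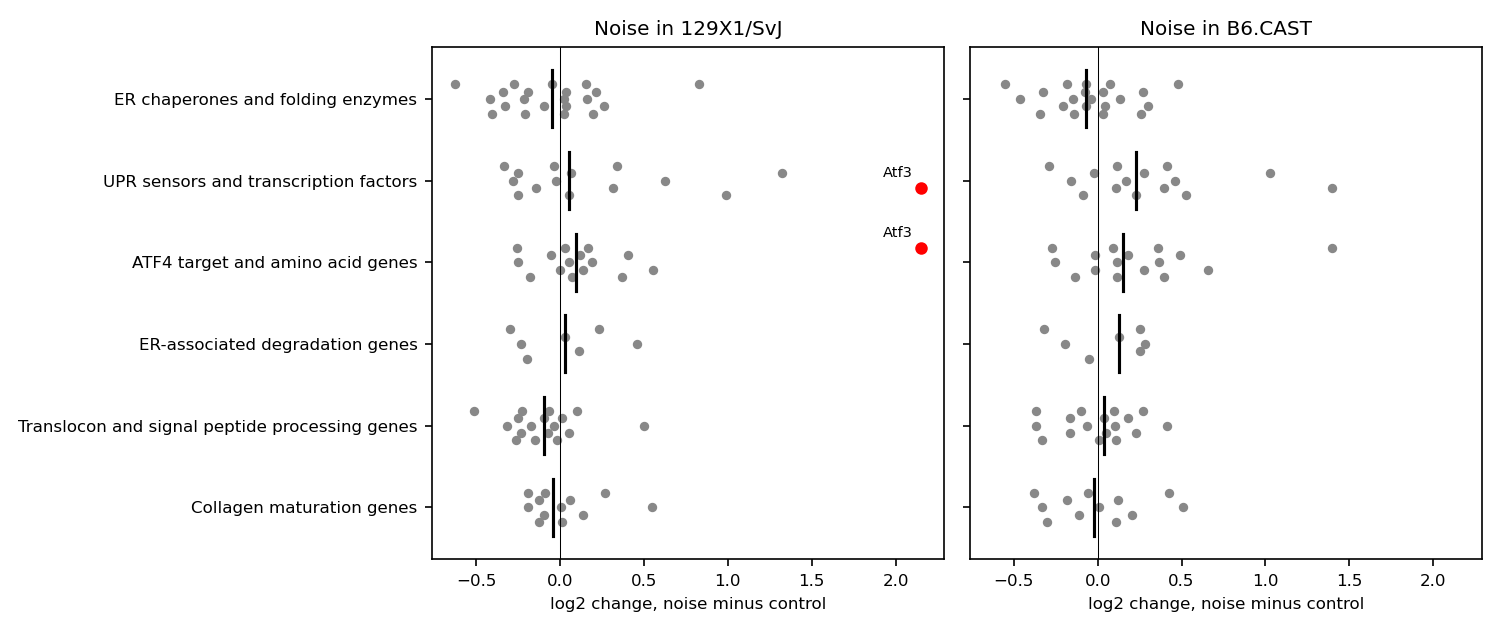
Log2 change after noise (horizontal) of every tested gene of the 6 pathway lists, 1 point per gene by its brightest probe set (96680_at for Dnajb9), in 129X1/SvJ (left) and B6.CAST (right); the black bar is the median of a list and red points are calls. Atf3, which stands in 2 lists, is the called point at 2.15; the called Dnajb9 probe set 96679_at is not plotted here, and the medians run from -0.10 to 0.10 in 129X1/SvJ and from -0.07 to 0.23 in B6.CAST.

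Genes whose promoter window holds the ERSE shown above numbered 37, of which 10 were tested: Adcy3, Canx, Creld2, Dnajc3, Ero1b, Hsp90b1, Hspa5, Pan2, Pdia6 and Ptgdr2. In limma none was called in any of the 6 comparisons. At an unadjusted p under 0.05 there was none in the 4 noise comparisons, where 2.10% to 11.5% of all probe sets passed. There was 1 between the control arrays of the strains, against 11.1% of all, and 2 between their noise arrays, against 10.6%. In 129X1/SvJ, 5 of the 10 were higher after noise, the changes ran from -0.41 to 0.26 and the median was -0.01, beside -0.05 over all genes tested. In B6.CAST 4 of the 10 were higher, with a median of -0.06 beside 0.01.

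Of the cochlear markers on the array, 4 of 5 of hair cells and 7 of 8 of the stria vascularis were tested. Those under the filter were Atoh1 of hair cells and Tyrp1 of the stria vascularis. For the spiral ligament 2 of 2 were tested, Coch among them. Of 11 neutrophil markers 10 were tested, with no value at 0. Their summed signal ran from 3450.5 to 21031.1 in 129X1/SvJ controls and from 12301.3 to 36495.3 after noise. In B6.CAST it ran from 5931.3 to 19507.8 and from 2347.0 to 2642.4. All 10 were higher after noise in 129X1/SvJ and none in B6.CAST, none of them called by limma. At an unadjusted p under 0.05, 1 passed in 129X1/SvJ, where 11.5% of all probe sets did, and 7 in B6.CAST, where 2.10% did. For the difference of noise effects 9 passed (median -2.91), against 2.97% of all. Between the strains after noise 9 passed (median -2.80), against 10.6%, and limma called none in either. The summed signal of erythroid markers ran from 12931.3 to 32458.9 in 129X1/SvJ controls and from 22159.0 to 36054.9 after noise. In B6.CAST it ran from 9879.2 to 24631.1 in controls and from 7088.8 to 10306.7 after noise. Of 9 macrophage markers, all on the array, 8 were tested, with no value at 0. Their summed signal ran from 3049.2 to 4990.9 in 129X1/SvJ controls and from 5034.7 to 6369.0 after noise, and from 6051.9 to 7513.3 and from 6021.9 to 6885.5 in B6.CAST. In 129X1/SvJ all 8 were higher after noise (median 0.34), 3 with an unadjusted p under 0.05 and none called by limma; in B6.CAST 4 were higher. For the mean noise effect 6 of the 8 were higher, with a median of 0.18. Only Cd14, a receptor for bacterial products, was called there, as Atf3 and Cebpb were, and it rose by 0.86 ± 0.16 (limma adjusted p = 0.0389). Other cell markers were called between the strains only. The macrophage marker Ctss was higher in the B6.CAST controls, where 7 of the 8 tested macrophage markers were higher. After noise, Dct of the stria vascularis was higher in B6.CAST, and erythroid Hbb-b2, plasma cell Jchain and muscle Myl1 were lower. Among all tested markers, 5 of 7 of the stria vascularis and 2 of 5 of muscle were higher in B6.CAST there. So were 0 of 5 erythroid markers and 1 of 5 of plasma cells and B lymphocytes. The part of any of these cell types in the values of Dnajb9, Ddit3, Atf4, Atf3 and Cebpb was not tested. The 3′ to 5′ signal ratio of Gapdh, a measure of RNA integrity, was 29.2 on control array 2 of 129X1/SvJ and 6.94 on noise array 1 of B6.CAST, and 0.790 to 1.40 on the other 8. Without both arrays Dnajb9 96679_at changed by 2.02 in 129X1/SvJ (limma adjusted p = 0.0464), and Atf3 by 2.09, no longer called (limma adjusted p = 0.0659). The mean noise effects were then 1.48 for Atf3 (limma adjusted p = 0.223) and 1.01 for Cebpb (limma adjusted p = 0.353), neither called.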

How the data were processed

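The table deposited by the authors gives 1 linear intensity for each probe set of one-colour Affymetrix arrays, which were hybridised, per the labels, with biotin-labelled cRNA. Before the deposit, the authors' table had been scaled by array: with 2% of probe sets trimmed at either end, array means are 500.268 to 500.304. Which software and target value were used is not given in the sources used here. No detection flags were used. The titles of 2 arrays of 129X1/SvJ spell the strain name with a different letter and were kept in that strain. Per the labels, arrays of a group are biological replicates; their number limits the precision.

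From these, log2(intensity + 16) was quantile normalized, and 66 control probe sets and the dimmest 30% of the others were left out (8695 remained). The linear model (limma 3.58.1 in R 4.3.3) had 4 group means over 10 arrays and moderated variances with a trend; Benjamini-Hochberg adjustment ran over all tested probe sets. Fold changes on this scale understate those of dim genes. Of the probe sets, 10855 had 1 gene symbol, 396 several and 1237 none; 10839 were matched to RefSeq names (GRCm38.p6). Promoters of all 9 genes were taken from RefSeq.

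Every member probe set is reported. From each pathway list, called genes are named (at most 6 per comparison by p), or else the 2 with the smallest p. Members and lists were chosen with earlier results of these data known. Tested on simulated data for noise in 129X1/SvJ on 8695 probe sets, the fit recovered 93 of 100 changes of log2 size 2 and 48 of 100 of size 1, with 9 false calls; for noise in B6.CAST it recovered 85 and 36 of 100, with 5 false calls. These recovery counts hold for data given 100 changes of each size. How many such changes the fit finds on the measured arrays was not tested. Alternatives were the pseudocount, filter, normalization, arrays fitted, array weights, a replicate block, no variance trend and leaving out each array. Leaving out both arrays with high Gapdh ratios was chosen after seeing the data.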

Additional observations from a re-analysis of the deposited data

How the results depend on the processing

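The rise of Dnajb9 96679_at in 129X1/SvJ was called in 17 of 19 alternatives that tested it, with values from 1.60 to 2.35; it was lost without 129X1/SvJ control 2 or 3. Of the 54 member changes under all alternatives (1056 values), 57 values turned sign, and none did where the main change exceeded its standard error. The 1 turned value that exceeded its own standard error was Dnajb9 96680_at between the control arrays, at -0.35 without B6.CAST control 1 against 0.18; leaving out each array gave -0.35 to 0.71. No member was called in 129X1/SvJ with the lowest 50% left out, since the called probe set was no longer tested, and 1 (Dnajb9 96679_at) was called between controls with only the arrays compared. Without each array in turn, calls of members ranged from 0 to 1 for noise in 129X1/SvJ.

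Over all probe sets, leaving out each array gave 22 to 46 calls for noise in 129X1/SvJ, 0 to 5 in B6.CAST, 18 to 47 for the mean, 0 for the difference, 23 to 132 between controls and 26 to 122 after noise. Array weights gave 71, 7, 139 and 192 for noise in 129X1/SvJ, noise in B6.CAST, controls and strain after noise. Leaving out both arrays with high Gapdh ratios gave 22, 0, 10, 36 and 26 for noise in 129X1/SvJ, noise in B6.CAST, the mean, controls and strain after noise. Fitting only the arrays compared gave 0 for noise in B6.CAST, 151 for controls and 55 for strain after noise. For noise in B6.CAST a pseudocount of 64 gave 2, a pseudocount of 1 gave 2, no filter 1 and no variance trend 0. The cause was not tested.

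Deviations from the group means, for control and noise arrays with the same replicate number, correlated at -0.15, -0.18 and -0.39 in 129X1/SvJ and -0.17 in B6.CAST. With 2 arrays in a group the deviations mirror each other, so B6.CAST arrays with different numbers gave 0.17 by construction. These values therefore cannot decide whether the replicate numbers pair the arrays. With the replicate block, noise in B6.CAST gave 2 calls, controls 34 and strain after noise 44, and Dnajb9 96679_at had an adjusted p of 0.0308 in limma. Low signal kept Calr out of the test.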
